A study of Homo sapiens with 20 samples.

Results

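Among the mRNAs listed as having a 5′ terminal oligopyrimidine (TOP) motif, 10 that encode elongation factors and other proteins of translation were followed through initiation complexes of HEK 293T cells, a human line of transformed embryonic kidney origin. They were taken from a fixed list of Ensembl identifiers of TOP mRNAs that encode no ribosomal protein, and all 10 were found among the 19029 genes counted. The list holds 4 mRNAs for subunits of elongation factor eEF1 (EEF1A1, ENSG00000156508; EEF1B2, ENSG00000114942; EEF1D, ENSG00000104529; EEF1G, ENSG00000254772), elongation factor EEF2 (ENSG00000167658), the ribosome scaffold RACK1 (ENSG00000204628), the nascent-chain binding pair NACA (ENSG00000196531) and BTF3 (ENSG00000145741), the growth-associated TPT1 (ENSG00000133112) and the nucleolar chaperone NPM1 (ENSG00000181163). Cells were treated for 1 h with 5 µM i14G1-12, a compound that the series title names for inhibition of eIF1-eIF4G1, or with the solvent DMSO. The labels give the genotype of all cells as WT and do not say how the HA tag was introduced. After 0.15% formaldehyde and RNase digestion, complexes of the small ribosomal subunit were pulled down through eIF1 or eIF2a, each by an HA tag, or through eIF4G1 or eIF3, and their mRNA footprints were sequenced, a method known as selective translation complex profiling. The 8 groups held 3 libraries each for i14G1-12 and for DMSO with eIF1 and eIF4G1, and 2 each with eIF2a and eIF3.

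A TOP mRNA starts with a C right after the cap, followed by an unbroken run of pyrimidines. This class covers the ribosomal proteins and much of the remaining translation machinery, and its translation is strongly tied to growth signalling through mTOR. The RNA-binding protein LARP1 can hold the capped TOP start and compete with the cap-binding complex that eIF4G1 scaffolds. Scanning from the cap to the start codon then uses eIF1, eIF2 and eIF3 on the small ribosomal subunit, and eIF1 guards the choice of the start codon.

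The annotated 5′ ends of the members show how much pyrimidine tract each carries, and they are printed, for all members but EEF1D, because this motif is the basis of the list. Each run below has the 5 bases before the RefSeq start and the 20 bases from it (GRCh38.p14, transcript strand), with capitals for a C within 5 bases of the start that is followed by at least 4 pyrimidines, and for the tract after it.
EEF1A1, chr6:73521013-73521037, minus strand: acgttCTTTTTCgcaacgggtttgc
EEF1B2, chr2:206159890-206159914, plus strand: cgggtCCTTTTTCCTCTCTTCagcg
EEF1G, chr11:62573872-62573896, minus strand: ggcttactttgcggcagcgccgaga
EEF2, chr19:3985444-3985468, minus strand: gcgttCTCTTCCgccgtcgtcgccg
RACK1, chr5:181243887-181243911, minus strand: tCTCTCTCTCTTTCactgcaaggcg
NACA, chr12:56725280-56725304, minus strand: tcggtCTTTCTgccgccatcttggt
BTF3, chr5:73498437-73498461, plus strand: ggCCTCCCTTTagctgccatcttgc
TPT1, chr13:45341164-45341188, minus strand: tcggCCTTTTCCgcccgctcccccc
NPM1, chr5:171387844-171387868, plus strand: gcgtCCTTTCCCTggtgtgattccg
Of the 9 members shown, 8 hold such a tract, from 6 bases in NACA to 16 in EEF1B2, and in EEF1G these letters are not in the window around its annotated start. EEF1B2 and NPM1 each have another annotated start without the tract. The search is permissive: 25.2% of the 27303 genes with a RefSeq window hold the same pattern, searched on the transcript strand only. EEF1A1, EEF1B2, EEF2 and NACA have the C at the annotated start itself, with tracts of 7, 16, 7 and 6 bases.

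The libraries held 10033 to 1161512 counts. The 10 mRNAs took 0.720% to 1.72% of them, and every member had at least 10 counts in 18 of the 20 libraries. The exceptions were eIF2a DMSO 2, the shallowest library, in which 4 of 10 members reached 10 counts and a count of 0 allows up to 299 CPM (a read count scaled by the size of its library), and eIF3 DMSO 2, with 59179 counts and 9 of 10 members. All 10 members passed the low-count filter in each comparison. With no input library analysed here, each value says what part of an immunoprecipitate's reads an mRNA took, and more mRNA in the cells and more complexes per mRNA cannot be told apart. The 4 immunoprecipitations differ in the factor pulled down and in the way it was reached. An HA tag was used for eIF1 and eIF2a, and no tag is stated for eIF4G1 or eIF3. Apart from the tag that eIF1 and eIF2a share, the purification cannot be told apart from the factor. EEF1A1, NPM1, TPT1, NACA and RACK1 have near-identical pseudogene copies in the genome. The sources used here do not give how reads that fit several places were counted, for these or for the other members, EEF1G among them.

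EEF1A1, the GTPase that carries aminoacyl-tRNA to the ribosome, had the highest normalised read count (CPM, scaled over all 20 libraries) of the members in all 8 groups. Its rank by mean CPM among the 19029 genes ran from 2 to 18. Levels of different mRNAs were compared as CPM per kilobase of the counted sequence. In eIF1 DMSO libraries RACK1 stood at 2859 ± 491 CPM per kilobase, EEF1A1 at 2003 ± 440.5, NPM1 at 1893 ± 306 and EEF1G at 1489.8 ± 493 (SD, n = 3). The library ranges of each of these neighbours overlapped. BTF3 followed at 777 ± 71.5 and EEF2 at 511 ± 85.0, neither overlapping the next member above it (SD, n = 3). EEF1B2 at 445 ± 9.7 overlapped EEF2, whereas NACA at 137 ± 15.0, EEF1D at 100.4 ± 1.07 and TPT1 at 67.3 ± 3.62 were each below the member before them in every library (SD, n = 3). In eIF4G1 DMSO libraries the order began with NPM1 at 1324 ± 254 CPM per kilobase, RACK1 at 995 ± 242 and EEF1A1 at 687 ± 103, and EEF1G, at 351 ± 54.0, lay among BTF3, EEF1B2 and EEF2 (SD, n = 3). The counted sequences of NACA (6387 nucleotides) and TPT1 (4548 nucleotides) are long for mRNAs that encode small proteins, which lowers their values on this scale.

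**Figure D1:**
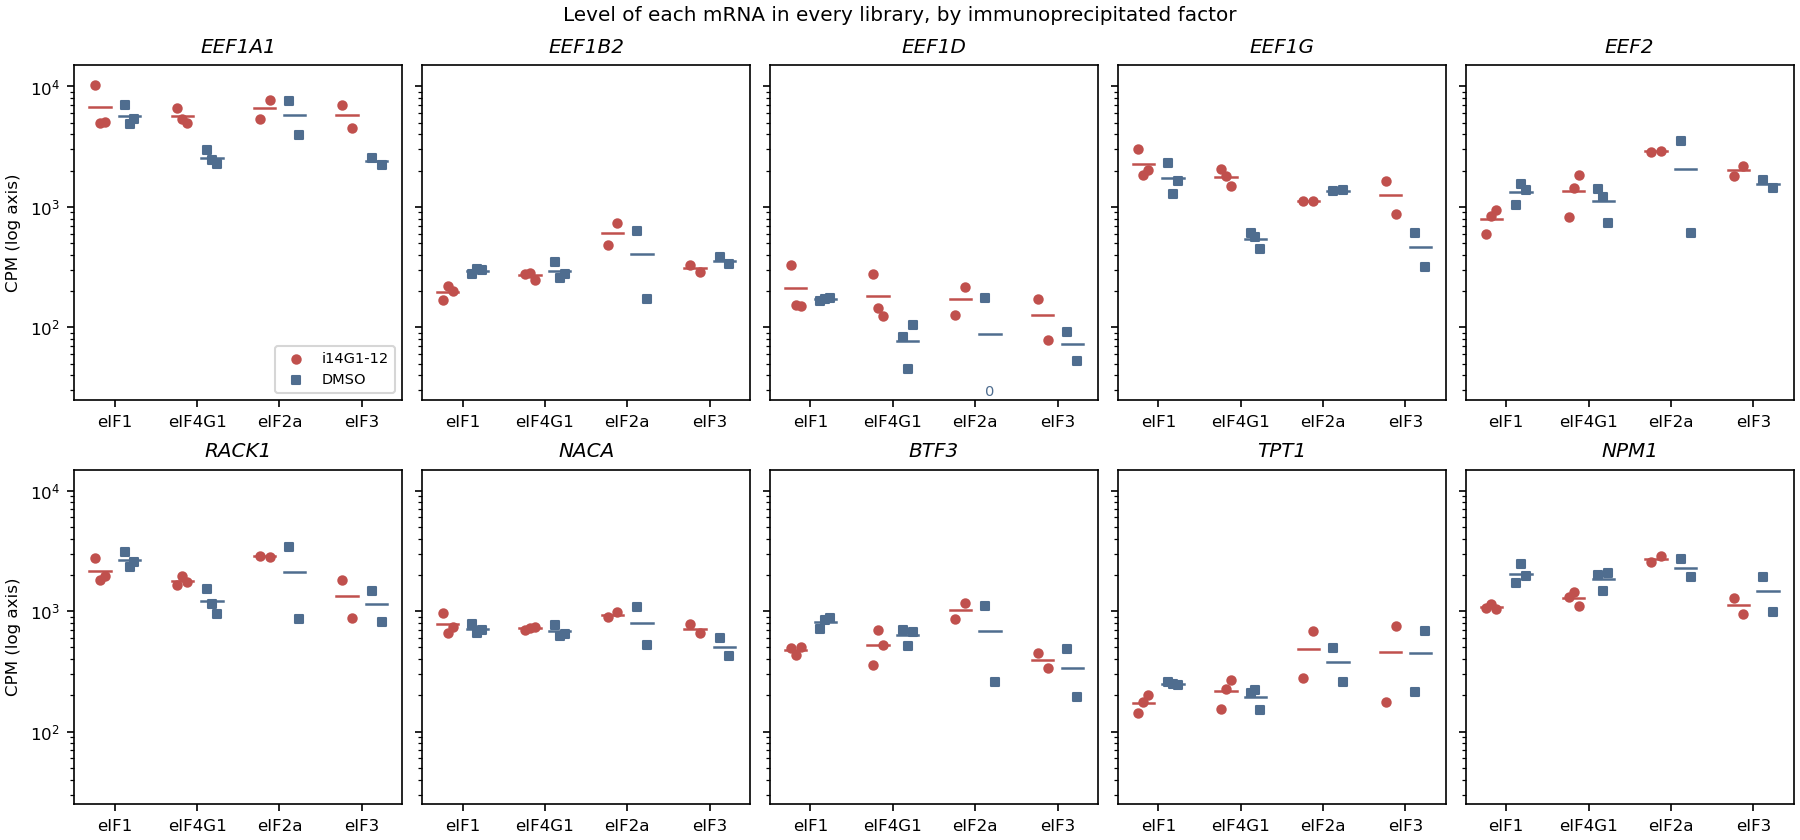
CPM of each of the 10 mRNAs (log axis) in every library, by immunoprecipitated factor, scaled within each immunoprecipitation, with i14G1-12 to the left of DMSO; each point is a library, each line a group mean, and a 0 marks the library with no EEF1D count. EEF1G and EEF1A1 lie above their DMSO libraries in every i14G1-12 library of eIF4G1 and eIF3, and NPM1 lies below its DMSO libraries in eIF1 and eIF4G1.

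The first question was how i14G1-12 changed the share of these mRNAs in eIF4G1 complexes. EEF1G and EEF1A1 rose, and the other 8 members did not pass the test, which was edgeR's quasi-likelihood test with p-values adjusted over all genes and a threshold of 0.05. The CPM of treatment comparisons were scaled within their own immunoprecipitation. EEF1G, the subunit that anchors the eEF1 exchange complex, had 2054, 1822 and 1478 CPM in i14G1-12 libraries, against 609.8, 566 and 445 CPM in DMSO libraries. Every treated library was more than 2 times as high as every control, and EEF1G rose by 1.72 on the log2 scale (SE 0.28, edgeR adjusted p = 0.00320). EEF1A1 had 6609, 5419 and 4934 CPM in i14G1-12 libraries, against 2988, 2466 and 2255 CPM in DMSO libraries. These groups also did not overlap, and its log2 fold change, 1.14, lay just past the threshold (SE 0.25, edgeR adjusted p = 0.0496). The 2 calls among 10 members stand beside 0.347% of all 7203 genes tested, all 25 of them higher.

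Among the remaining eEF1 subunits, the exchange factor EEF1D had 277, 146 and 125 CPM in eIF4G1 i14G1-12 libraries, against 82.6, 45.0 and 105 CPM in DMSO libraries. The groups were separate, but the lowest treated value was close to the highest control, and the difference of 1.21 on the log2 scale did not pass (SE 0.39, edgeR adjusted p = 0.269). The exchange factor EEF1B2, in contrast, had 277, 284 and 249 CPM in i14G1-12 libraries and 349.8, 256 and 277 CPM in DMSO libraries, which overlapped (log2 fold change -0.14, SE 0.29). Subunits of a single complex thus had values from -0.14 to 1.72 in the same libraries.

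EEF2, the GTPase of translocation, spread widely in eIF4G1 complexes, at 822, 1446 and 1825 CPM in i14G1-12 libraries against 1401, 1216 and 735 CPM in DMSO libraries. RACK1, which sits on the small subunit, had 1637, 1955 and 1747 CPM in i14G1-12 libraries, all above the 1523, 1146 and 953 CPM of DMSO libraries, without passing (log2 fold change 0.56, SE 0.27, edgeR adjusted p = 0.576). NPM1, a chaperone of nucleolar ribosome assembly, was the only member whose i14G1-12 libraries all lay below the DMSO libraries, at 1304, 1448 and 1107 CPM against 2005, 1478 and 2091 CPM, and it also did not pass (log2 fold change -0.53, SE 0.27, edgeR adjusted p = 0.603). NACA and BTF3, which together bind nascent chains at the ribosome exit, and TPT1 overlapped between the groups, with log2 fold changes of 0.08, -0.26 and 0.17. Separate groups on the higher side (EEF1A1, EEF1G, EEF1D and RACK1) made up 4 of 10 members, against 7.40% of all genes, and on the lower side 1 of 10, against 6.87%. The median log2 fold change was 0.23 for the members and -0.0053 for all genes tested.

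The size of both rises stayed close to these values when any 1 library was left out, at 1.60 to 1.84 for EEF1G and 1.01 to 1.25 for EEF1A1 on the log2 scale, but the calls depended on single libraries. EEF1G no longer passed without eIF4G1 DMSO 1 (edgeR adjusted p = 0.0532) or DMSO 3 (edgeR adjusted p = 0.123), and EEF1A1 did not pass without any 1 of the DMSO libraries (edgeR adjusted p = 0.172, 0.281 and 0.590 without DMSO 1, 2 and 3) or without i14G1-12 2 (edgeR adjusted p = 0.156).

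In eIF1 complexes 0 of 10 members passed by edgeR, beside 0.456% of 8338 genes. At an unadjusted p under 0.05 there were 5 members, all lower, beside 5.86% of all genes lower at that level. DESeq2 called 3 of them, and it called more genes in all, 174 against 38 by edgeR. NPM1 had 1062, 1148 and 1052 CPM in i14G1-12 libraries, against 1715, 2462 and 1959 CPM in DMSO libraries. The treated libraries were tightly grouped well below every control, and the log2 fold change was -0.91 (SE 0.22, edgeR adjusted p = 0.0592). DESeq2 gave NPM1 an adjusted p of 6.6e-05, and edgeR called it with total counts only, without a filter or with a minimum count of 30 (edgeR adjusted p = 0.0140, 0.0111 and 0.0297), and without i14G1-12 a or DMSO a (edgeR adjusted p = 0.0214 and 0.0481). NPM1 thus passed in 6 of 12 alternatives. It did not pass with DESeq2 size factors, with all 20 libraries in 1 fit, or when any other eIF1 library was left out (edgeR adjusted p up to 0.572). BTF3 had 491, 435 and 506 CPM in i14G1-12 libraries, against 709, 841 and 881 CPM in DMSO libraries. It too lay below every control, at -0.76 on the log2 scale (SE 0.21, edgeR adjusted p = 0.0873; DESeq2 adjusted p = 0.00198).

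EEF2 had 592, 845 and 935 CPM in eIF1 i14G1-12 libraries, against 1044, 1537 and 1383 CPM in DMSO libraries. The groups were separate, at -0.74 on the log2 scale (SE 0.23, edgeR adjusted p = 0.140; DESeq2 adjusted p = 0.0154). EEF1B2 averaged 197 ± 26.3 CPM in i14G1-12 and 294 ± 13.8 CPM in DMSO (SD, n = 3 each), and no treated library reached a control. TPT1, a growth-associated protein that also contacts eEF1 subunits, had 142, 177 and 202 CPM in i14G1-12 libraries, against 258, 248 and 243 CPM in DMSO libraries. These groups were likewise separate. Neither mRNA passed, with log2 fold changes of -0.57 and -0.52 (edgeR adjusted p = 0.245 and 0.313). These 5 members with separate groups on the lower side stand beside 9.58% of all genes.

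The members with the highest folds in eIF4G1 complexes overlapped between the groups in eIF1 complexes. EEF1G had 2998, 1845 and 2013 CPM in i14G1-12 libraries, against 2324, 1275 and 1646 CPM in DMSO libraries, which is 0.38 on the log2 scale (SE 0.25, edgeR adjusted p = 0.561). EEF1A1 had 10229.7, 4937 and 5111 CPM in i14G1-12 libraries, against 6956, 4846 and 5362 CPM in DMSO libraries. Library a was the high one in each group, and without i14G1-12 a the log2 fold change of EEF1A1 was -0.19 in place of 0.24. EEF1D had 328, 155 and 150.3 CPM in i14G1-12 libraries against 166, 174 and 174 CPM in DMSO libraries, and it likewise changed sign without i14G1-12 a, to -0.17. RACK1, at 2169 ± 499 CPM in i14G1-12 and 2653 ± 384 CPM in DMSO, and NACA, at 789 ± 159 CPM in i14G1-12 and 713 ± 58.9 CPM in DMSO, also overlapped (SD, n = 3 each). The median log2 fold change was -0.41 for the members and 0.0048 for all genes tested.

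**Figure D2:**
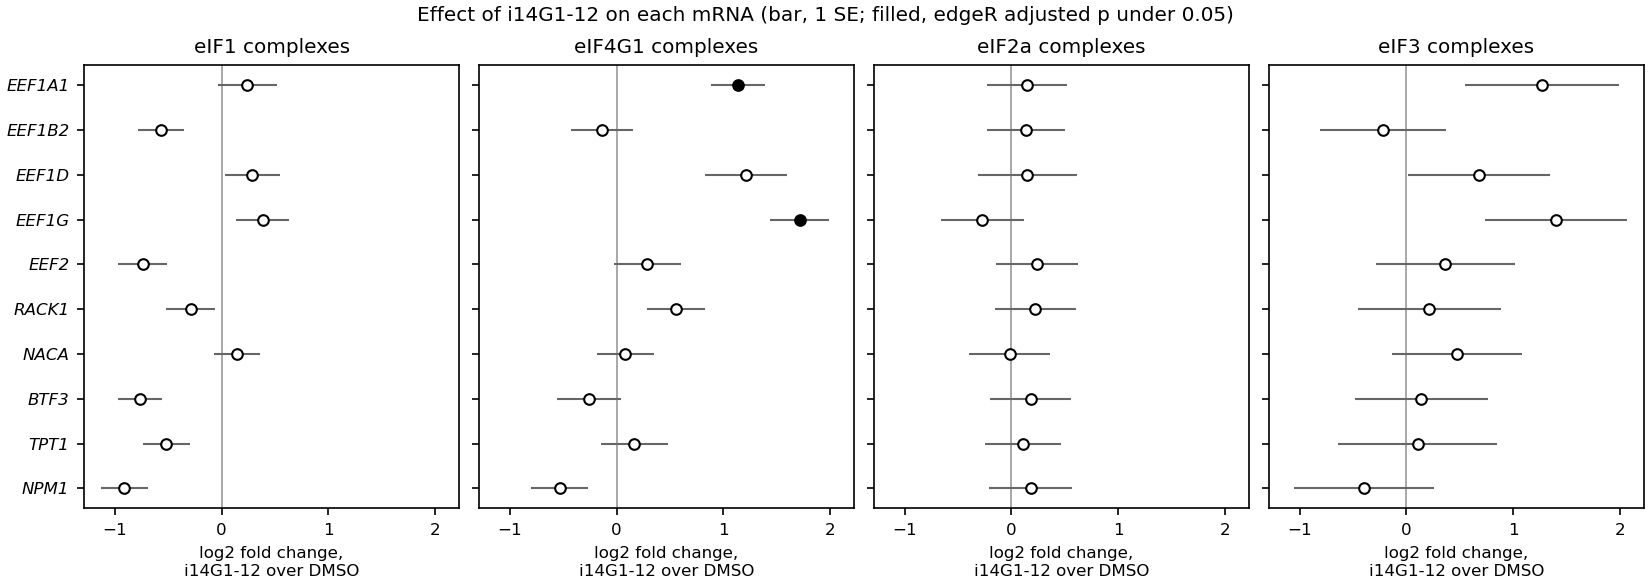
Log2 fold change of each mRNA, i14G1-12 over DMSO, in the 4 immunoprecipitations, with bars of 1 SE and filled points for an edgeR adjusted p under 0.05. The 2 filled points are EEF1G at 1.72 and EEF1A1 at 1.14 in eIF4G1 complexes, and in eIF1 complexes NPM1, BTF3 and EEF2 lie lowest.

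In eIF3 complexes, with 2 libraries a group, no member passed the test by edgeR or DESeq2, beside 0.0159% of 6300 genes (1 gene) by edgeR. At an unadjusted p under 0.05 there was 1 member, EEF1G, and 110 genes in all (1.75%). EEF1G had 1636 and 867 CPM in i14G1-12 libraries, against 609 and 315 CPM in DMSO libraries. Both treated libraries were above both controls, and the log2 fold change was 1.40 (SE 0.66, edgeR adjusted p = 1.000). EEF1A1 had 7074 and 4480.5 CPM in i14G1-12 libraries, against 2541 and 2243 CPM in DMSO libraries, which is 1.27 on the log2 scale (SE 0.72). These 2 had the highest fold changes of the members here. EEF2, at 1823 and 2198 CPM in i14G1-12 against 1674 and 1437 CPM in DMSO, and NACA, at 779 and 654 CPM in i14G1-12 against 595 and 421 CPM in DMSO, were also higher in every treated library. The 4 members higher without overlap stand beside 12.5% of all genes, and the 1 lower without overlap, EEF1B2 at 329 and 288 CPM in i14G1-12 against 381 and 333 CPM in DMSO, beside 13.5%. In eIF3 DMSO 2 the values of EEF1B2 and EEF1G stand on 19 and 18 counts, and the gap for EEF1B2 is narrow.

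TPT1 followed the library number and not the treatment in eIF3 complexes. It had 177 and 747 CPM in i14G1-12 libraries 1 and 2, against 214 and 683 CPM in DMSO libraries 1 and 2. RACK1 ran the other way, at 1801 and 872 CPM in i14G1-12 libraries against 1474 and 806 CPM in DMSO libraries. For both mRNAs the libraries numbered 2 stood apart from those numbered 1 by more than the treated ones did from the controls.

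In eIF2a complexes no member was called by edgeR or DESeq2, and neither was any of the 4719 genes tested (0%). At an unadjusted p under 0.05 there were 0 members and 87 genes (1.84%). With 2 libraries a group and SEs from 0.35 in TPT1 to 0.46 in EEF1D, this does not show that the members were unchanged. EEF1G, which rose in eIF4G1 complexes, had 1126 and 1122 CPM in i14G1-12 libraries, against 1349 and 1387 CPM in DMSO libraries (log2 fold change -0.28, SE 0.39). It was the only member whose groups did not overlap, on the lower side beside 9.37% of all genes, and its DMSO 2 value stands on 16 counts. EEF1A1 had 5396 and 7741 CPM in i14G1-12 libraries, against 7511 and 3988 CPM in DMSO libraries, and NPM1 had 2563 and 2880.4 CPM in i14G1-12 libraries, against 2698 and 1907 CPM in DMSO libraries. The deep control, DMSO 1, with 269816 counts, lay between the treated libraries for both. EEF2 had 2866 and 2917 CPM in i14G1-12 libraries, against 3554 and 607 CPM in DMSO libraries, the last from 7 counts. With DMSO 1 left out, that library of 10033 counts was the only control, and EEF2 (log2 fold change 2.29, edgeR adjusted p = 0.000894) and RACK1 (log2 fold change 1.76, edgeR adjusted p = 0.0159) passed. Without DMSO 2 no member passed.

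Averaged over the 4 immunoprecipitations in 1 fit, EEF1G rose by 0.84 on the log2 scale (SE 0.20, edgeR adjusted p = 0.0251). It was the only 1 of 10 members called, beside 0.541% of 9426 genes. EEF1A1 came next at 0.74 (SE 0.20, edgeR adjusted p = 0.0680), and DESeq2 put it past the threshold (DESeq2 adjusted p = 0.000307). DESeq2 called 3 members, and it called more genes in all, 143 against 51 by edgeR. NPM1 had the lowest mean effect, -0.38 (edgeR adjusted p = 0.484), and DESeq2 called it lower (adjusted p = 0.0309). The EEF1G call was lost in 10 of the 20 runs that left out a library (edgeR adjusted p up to 0.104), while the value stayed at 0.71 to 1.01 on the log2 scale over all 20. These were the runs without eIF1 i14G1-12 a, DMSO b or DMSO c, without eIF4G1 DMSO 3, without any 1 of the 4 eIF2a libraries, and without eIF3 i14G1-12 1 or DMSO 2. The call held at 0.81 on the log2 scale (edgeR adjusted p = 0.0173) without eIF2a DMSO 2 and both eIF3 libraries numbered 2, a choice made after seeing the data. With total counts only for scaling, EEF1G was not called. In the separate fits its log2 fold changes were 1.72 in eIF4G1, 1.40 in eIF3, 0.38 in eIF1 and -0.28 in eIF2a complexes. The mean uses the same eIF4G1 libraries as the call in eIF4G1 complexes.

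The difference between the effects in eIF1 and in eIF4G1 complexes was tested directly. It was negative for 9 of 10 members, NACA being the exception, whereas 48.3% of all genes had a positive difference. The median was -0.74 for the members beside -0.022 for all genes. No member passed by edgeR or DESeq2, beside 0.0318% of 9426 genes by edgeR (3 genes). EEF1G alone reached an unadjusted p under 0.05, beside 3.13% of all genes, with a difference of -1.30 (SE 0.48, edgeR adjusted p = 1.000). In the same fit no member's effect was called as differing among the 4 immunoprecipitations, beside 0.0212% of all genes, and EEF1G was again the only member at an unadjusted p under 0.05, beside 1.80% of all genes (edgeR adjusted p = 1.000). The rise of EEF1G in eIF4G1 complexes is therefore not shown to differ from its effect in the other complexes.

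Summed over the 10 mRNAs, their share of a library's counts was lower in treated eIF1 libraries and higher in treated eIF4G1 libraries. In eIF1 complexes it was 1.35% ± 0.13 in i14G1-12 and 1.61% ± 0.017 in DMSO (SD, n = 3 each), with every treated library below every control. When the 10 most abundant other genes of each library were left out, the groups overlapped, at 2.01%, 1.46% and 1.53% in i14G1-12 libraries, against 2.02%, 1.79% and 1.84% in DMSO libraries. In eIF4G1 complexes it was 1.22% ± 0.049 in i14G1-12 and 0.908% ± 0.12 in DMSO (SD, n = 3 each), with every treated library above every control. Neither difference could pass with 3 libraries against 3, since p = 0.1 is the lowest value of a two-sided exact permutation test at that size, and both had it (adjusted over 4 shares, p = 0.2 by the same exact test). In eIF3 complexes the share was 1.16% ± 0.19 in i14G1-12 and 0.809% ± 0.13 in DMSO (SD, n = 2 each), where the same exact test gave p = 0.333, the lowest possible with 2 against 2 (adjusted p = 0.444). In eIF2a complexes it was 1.51% ± 0.21 in i14G1-12 and 1.43% ± 0.41 in DMSO (SD, n = 2 each; p = 1 by the same exact test). That DMSO mean joins 1.72% (Wilson 95% interval 1.67% to 1.77%) and, in the shallow library, 1.15% (0.956% to 1.37%), and the intervals cover counting error only.

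**Figure D3:**
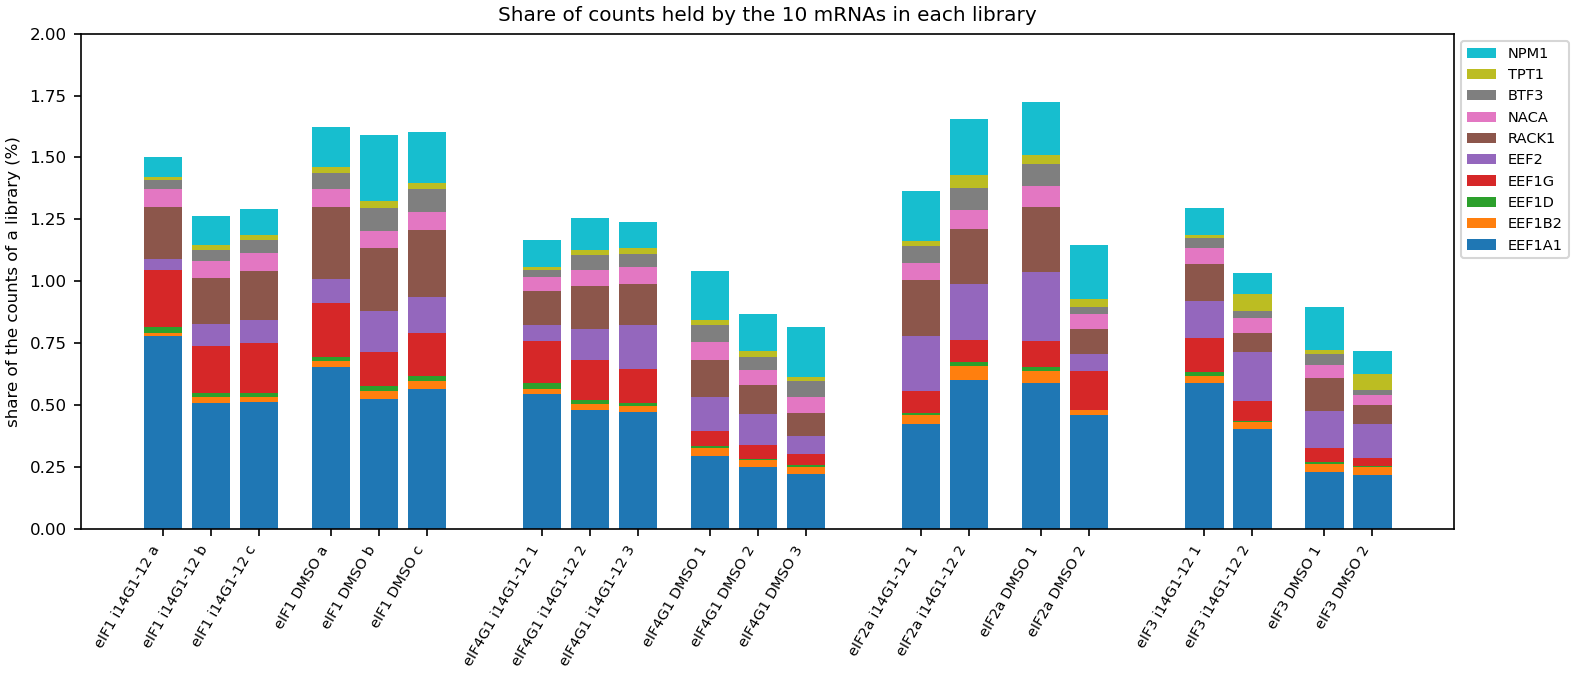
Share of each library's counts, in percent, held by the 10 mRNAs, stacked by mRNA, with the i14G1-12 libraries left of the DMSO libraries for each factor. EEF1A1 is the widest band, and the eIF4G1 totals are 1.17% to 1.26% in i14G1-12 against 0.816% to 1.04% in DMSO.

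The balance between members does not depend on how libraries are scaled, and it was taken for a few pairs only. These pairs were chosen after their values were seen, so the ratios are a description with no test and no ranking of pairs. EEF1G over NPM1 was 1.58, 1.26 and 1.34 in eIF4G1 i14G1-12 libraries, against 0.304, 0.383 and 0.213 in DMSO libraries. In eIF1 complexes it was 2.82, 1.61 and 1.91 in i14G1-12 libraries, against 1.35, 0.518 and 0.840 in DMSO libraries, and in eIF3 complexes 1.27 and 0.917 in i14G1-12 libraries, against 0.315 and 0.321 in DMSO libraries. The treated libraries were above the controls in each of these 3 immunoprecipitations. In eIF2a complexes the ratio was 0.439 and 0.389 in i14G1-12 libraries, against 0.500 and 0.727 in DMSO libraries, so there the treated libraries were the lower ones.

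Within the eEF1 complex, EEF1G over EEF1B2 was 7.42, 6.42 and 5.93 in eIF4G1 i14G1-12 libraries, against 1.74, 2.21 and 1.61 in DMSO libraries. In eIF1 complexes it was 17.6, 8.29 and 10.1 in i14G1-12 libraries, against 8.36, 4.19 and 5.51 in DMSO libraries, where the lowest treated value fell just under the highest control. In eIF3 complexes it was 4.97 and 3.02 in i14G1-12 libraries, against 1.60 and, from 18 over 19 counts, 0.947 in DMSO libraries. In eIF2a complexes the groups overlapped, at 2.35 and 1.52 in i14G1-12, against 2.13 and, from 16 over 2 counts, 8 in DMSO. EEF1A1 over NPM1 was 5.07, 3.74 and 4.46 in eIF4G1 i14G1-12 libraries, against 1.49, 1.67 and 1.08 in DMSO libraries, and at 9.63, 4.30 and 4.86 in eIF1 i14G1-12 libraries, against 4.05, 1.97 and 2.74 in DMSO libraries. In both immunoprecipitations every treated library was above every control. The same held in eIF3 complexes, at 5.50 and 4.74 in i14G1-12 libraries, against 1.31 and 2.29 in DMSO libraries, and not in eIF2a complexes, which overlapped at 2.10 and 2.69 in i14G1-12 libraries, against 2.78 and 2.09 in DMSO libraries. EEF1A1 over EEF2, the ratio of the delivery to the translocation factor, overlapped between the groups in eIF4G1 complexes, at 8.04, 3.75 and 2.70 in i14G1-12 libraries, against 2.13, 2.03 and 3.07 in DMSO libraries. In eIF3 complexes it was higher in both treated libraries, at 3.88 and 2.04 in i14G1-12, against 1.52 and 1.56 in DMSO. It overlapped in eIF1 complexes, at 17.3, 5.84 and 5.47 in i14G1-12 libraries, against 6.66, 3.15 and 3.88 in DMSO libraries, and in eIF2a complexes, at 1.88 and 2.65 in i14G1-12 libraries, against 2.11 and 6.57 in DMSO libraries. NACA over BTF3 was 1.97, 1.52 and 1.46 in eIF1 i14G1-12 libraries, against 1.10, 0.789 and 0.793 in DMSO libraries. Every treated eIF1 library was thus above every control, while this ratio overlapped between the groups in eIF4G1, eIF2a and eIF3 complexes.

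**Figure D4:**
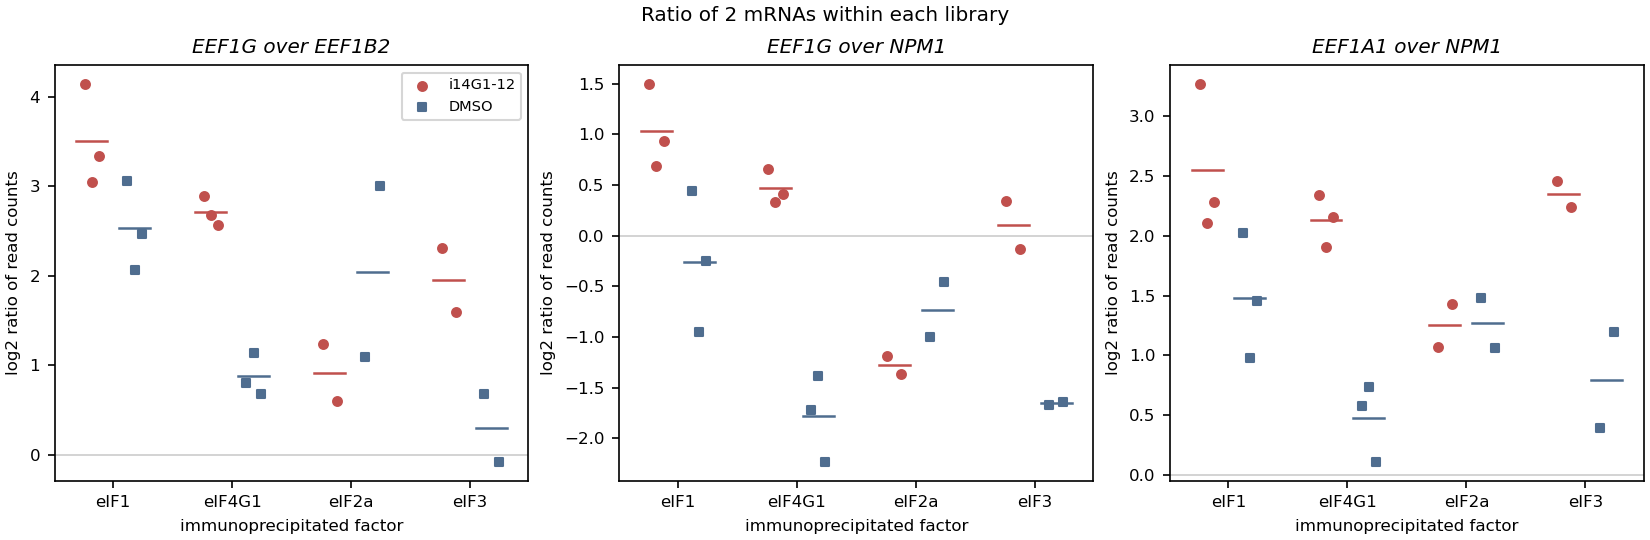
Log2 ratio of the read counts of pairs of mRNAs within each library, by immunoprecipitated factor, with i14G1-12 left of DMSO; each point is a library and each line a group mean. The 3 pairs are EEF1G over EEF1B2, EEF1G over NPM1 and EEF1A1 over NPM1, and the EEF1G over NPM1 ratio is higher in every i14G1-12 library than in every DMSO library of eIF1, eIF4G1 and eIF3, and lower in eIF2a.

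The members also differed between complexes in cells given DMSO alone. Compared between eIF1 and eIF4G1 in DMSO, all 10 were higher in eIF1 libraries, as were 49.2% of all genes. The median log2 difference was 0.74 for the members beside -0.012 for all genes, and 4 members passed, beside 1.72% of 9426 genes called higher. On the scale of CPM over all 20 libraries, EEF1G was at 2929.8, 1526 and 2007 CPM in eIF1 DMSO libraries, against 576, 522 and 422 CPM in eIF4G1 DMSO libraries. No library of either group came near the other, and the log2 difference was 2.08 (SE 0.35, edgeR adjusted p = 0.00012). EEF1A1 was at 8769.8, 5798 and 6538 CPM in eIF1 DMSO libraries, against 2824, 2276 and 2139.7 CPM in eIF4G1 DMSO libraries (log2 difference 1.54, SE 0.36, edgeR adjusted p = 0.0107).

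RACK1 averaged 3259 ± 560.3 CPM in eIF1 DMSO libraries and 1134 ± 276 CPM in eIF4G1 DMSO libraries (SD, n = 3 each; log2 difference 1.52, SE 0.37, edgeR adjusted p = 0.0137). EEF1D averaged 209.8 ± 2.23 CPM in eIF1 DMSO libraries and 73.1 ± 29.3 CPM in eIF4G1 DMSO libraries (SD, n = 3 each; log2 difference 1.53, SE 0.39, edgeR adjusted p = 0.0207). The other 6 had log2 differences from 0.37 in EEF1B2 to 0.75 in TPT1 and did not pass. This comparison and that of i14G1-12 with DMSO in eIF4G1 complexes share the eIF4G1 DMSO libraries. Over the 4 DMSO groups, EEF1G, EEF1A1, RACK1 and EEF1D differed among immunoprecipitations, 4 of 10 members beside 2.45% of all genes.

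Only EEF1G passed in the comparison of eIF1 with eIF4G1 in DMSO when eIF1 DMSO a or eIF4G1 DMSO 2 was left out, 2 members passed without eIF1 DMSO c or eIF4G1 DMSO 3, and EEF1D did not pass without eIF4G1 DMSO 1 (edgeR adjusted p = 0.0889). The differences themselves stayed at 1.34 to 1.67 on the log2 scale for EEF1A1, 1.35 to 1.73 for RACK1 and 1.23 to 1.72 for EEF1D over the runs that left out a library. Over the 4 DMSO groups, only EEF1G passed without eIF1 DMSO a. Among the 20 runs of that test that left out a library, EEF1D did not pass in 5 (edgeR adjusted p up to 0.169). BTF3, not called with all libraries (edgeR adjusted p = 0.0623), passed in 6 of them. Scaling to total counts alone lowered the median log2 difference of all genes to -0.35 and that of the members to 0.40, with all 10 still higher and 3 called. The called genes then split into 60 higher and 83 lower in eIF1, against 162 higher and 32 lower with TMM scaling, edgeR's trimmed mean of ratios between libraries.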

How the data were processed

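The values are the authors' deposited raw counts, whole numbers of reads for each gene, with a separate table for every immunoprecipitation and the length of each counted sequence beside them. The submitters' processing notes name cutadapt and Trimmomatic, Bowtie, HISAT2 and featureCounts, and the build hg38. Treatment comparisons were fitted on the libraries of their own immunoprecipitation with edgeR 4.0.16 in R 4.3.3 (filterByExpr with a minimum count of 10, TMM scaling, quasi-likelihood test, two-sided), and the other contrasts in 1 fit of all 20 libraries. P-values were adjusted by Benjamini-Hochberg over all genes tested, with a threshold of 0.05. The SE of a log2 fold change was taken as its size divided by the root of the F statistic. CPM were computed from the deposited counts with TMM scaling within an immunoprecipitation, or over all 20 libraries for levels across them.

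The members and lists were chosen with earlier results of these data known. All 10 members are named, whatever their result, with the genes most like them in profile. The files do not pair identifiers with names and the reference table's Ensembl column was empty, so the lists of ribosomal and other TOP mRNAs, elongation and release factors, TOP regulators and cell markers could not be matched and are not reported; the cell line was not checked against markers. Sequences are from RefSeq (GRCh38.p14), matched by symbol.

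The eIF1 columns carry no replicate number of the labels and are called a, b and c. The labels do not say that replicates are separate cultures, so a p-value reflects only how far these libraries spread, and that may be technical. No 2 libraries of a group agreed within counting noise (chi-square over degrees of freedom 1.43 to 11.2). Libraries that share a number were not treated as paired: their deviations correlated at 0.0066, -0.10 and -0.15 for eIF4G1, -0.024 for eIF2a and, over 2 numbers, 0.56 for eIF3. Fits were repeated with DESeq2 size factors or total counts only for scaling, without a filter, with a minimum count of 30, with the DESeq2 1.42.0 test, with all 20 libraries in 1 fit, with a replicate block, leaving out each library and, for the share, leaving out the 10 most abundant other genes. A fit without eIF2a DMSO 2 and the eIF3 libraries numbered 2 was chosen after seeing the data.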

Additional observations from a re-analysis of the deposited data

How the results depend on the processing

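For single members, 1699 alternative values stayed on the same side of the threshold, 40 lost it, 28 gained it and 0 reversed a call. The 1699 include members that were not called in the main fits. Reversal was counted for calls only, and uncalled members did change sign, such as NACA in eIF2a complexes in 7 of 11 alternatives. The number of members called in eIF1 complexes, 0, became 2 with total counts only, 1 with no filter, 2 with a minimum count of 30 and 3 with DESeq2, and 0 to 1 when a library was left out. NPM1 passed in each of these 4 settings that gave a call, and with eIF1 i14G1-12 a or DMSO a left out. The 2 members called in eIF4G1 complexes became 1, EEF1G, with DESeq2 size factors, with no filter or with all 20 libraries in 1 fit, and 0 to 2 when a library was left out. In eIF3 complexes the replicate block gave 1 member, EEF1G (log2 fold change 1.44, edgeR adjusted p = 0.0230), and 38 genes in all against 1 without it, and leaving out a library gave 0. The replicate block changed no other member call in eIF4G1, eIF2a or eIF3. In eIF2a complexes leaving out a library gave 0 to 2. For the mean effect, the 1 member called became 2 with DESeq2 size factors, 0 with total counts only, 2 with a minimum count of 30 and 3 with DESeq2, and 0 to 2 when a library was left out. Neither test of a difference between effects called a member when a library was left out (0), and members called in DMSO numbered 1 to 5 among the 4 immunoprecipitations and 1 to 4 for eIF1 against eIF4G1. The summed share differed by -0.33 to -0.21 percentage points in eIF1, 0.27 to 0.38 in eIF4G1 and 0.22 to 0.49 in eIF3 when a library was left out, while in eIF2a, at 0.074, it ran from -0.21 to 0.36 and reversed without i14G1-12 2 (-0.072) or DMSO 2 (-0.21). The cause of these changes was not tested.

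Counts over all genes moved more. Genes called in eIF1 numbered 38, with 4 to 174 under the alternatives and 2 to 64 when a library was left out, and in eIF4G1 25, with 20 to 91 and 4 to 46. For the mean effect they numbered 51, with 29 to 143 and 14 to 104, and for eIF1 against eIF4G1 in DMSO 194, with 143 to 313 and 38 to 267. They numbered 231 for the 4 DMSO groups, with 125 to 293 and 56 to 308. With total counts only, the median over all genes was -0.13 on the log2 scale in eIF1, with 24 genes higher and 16 lower in place of 27 and 11, and -0.16 in eIF4G1, and the mean effect had 20 higher and 9 lower in place of 49 and 2. NACA then had log2 fold changes of -0.02 in eIF1 and -0.07 in eIF4G1, and the mean effect of EEF2 was -0.07 and of TPT1 -0.11. Depth limits eIF2a DMSO 2 most.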

Other observations

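Across the 20 libraries the members varied together to different degrees. On log2 CPM scaled over all libraries, the Pearson correlation of a member with the mean of the other members was 0.92 for RACK1, 0.86 for NACA and 0.85 for BTF3, and it was 0.79 for EEF1D, 0.72 for EEF1A1 and 0.69 for EEF1B2. It was lower for NPM1 (0.55), EEF2 (0.54) and EEF1G (0.52), and lowest for TPT1 (0.14), which was high in both eIF3 libraries numbered 2. The libraries share immunoprecipitations and differ in depth, so these values are a description. The genes outside the group whose profile was most like the mean of the 10 were ENSG00000115875 (r = 0.949) and ENSG00000145425 (r = 0.939), which the files do not name.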
